A study of Homo sapiens with 12 samples.

Results

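The expression profile of clone 8, a line of A172 glioblastoma cells that stably overexpresses hHSS1, was compared with that of mock cells carrying the empty vector. The comparison used 6 of the 12 arrays of the study, 3 titled for clone 8 and 3 titled for mock, and covered all 18417 genes that the array annotation names by a single symbol. A172 is an established adherent line from a human glioblastoma. The mock line was transfected with pcDNA3.1 alone and clone 8 with the same plasmid carrying hHSS1 with a histidine tag at the C-terminal end, and both were kept as stable transfectants under antibiotic selection. The other 6 arrays came from untransfected wild-type A172 cells and from a second hHSS1 clone, clone 7. All cultures were harvested on day 4 of growth. Each group had 3 arrays, labelled as biological replicates, but clone 8 is 1 clone and mock 1 line. A p-value here measures the spread between cultures, pooled over the 4 groups, and not between independently made transfectants.

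hHSS1 is now called EMC10. Its product occurs as a subunit of the ER membrane complex, which inserts membrane proteins into the endoplasmic reticulum, and as a secreted protein. Glioblastoma is a fast-dividing, invasive and highly vascular brain tumour, and the study asked which pathways of growth, migration and vessel formation change when hHSS1 is raised.

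The values were log2 expression levels, on which a difference of 1 is a doubling. Array medians lay between 8.60 and 8.67, and the number of arrays, not a read depth, limits the precision. Clone 8 was the more variable group, with a median SD per gene of 0.14 against 0.05 in mock (log2, n = 3 each). As markers of the line, the mesenchymal filament vimentin (VIM), the glial factor SOX9 and the hyaluronan receptor CD44 lay above the upper quartile of the arrays, whereas the astrocyte markers S100B, AQP4 and SLC1A2 and the stem cell marker PROM1 lay below the lower quartile. Of 10 fibroblast markers PDGFRB, THY1, ACTA2 and RGS5 were above the upper quartile and DCN was below the lower. The epithelial keratins KRT8 and KRT18 and the neuronal filament NEFL were also above the upper quartile. None of 9 endothelial markers was above the upper quartile, and of 8 leukocyte markers CD68 was.

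Array 3 of clone 8 stood apart from arrays 1 and 2 and went against its label. Between the arrays labelled clone 8 replicates 1 and 3, 831 genes differed by at least 1.5-fold, and between replicates 2 and 3, 891 genes did. From the array labelled clone 7 replicate 1 the same array 3 differed in 23 genes. The array labelled clone 7 replicate 3 in turn differed from clone 8 replicate 2 in 25 genes and from clone 7 replicate 1 in 566. Clone 8 replicates 1 and 2 differed from each other in 270 genes. With both arrays labelled replicate 3 set aside, 617 genes differed between the clones. The array labelled clone 8 replicate 3 was on the side of clone 8 replicates 1 and 2 in 9 of these genes (1.46%), and the array labelled clone 7 replicate 3 in 611 (99%). The groups were kept as titled, no array was moved, and the results below are given with all arrays, without replicate 1 and without replicate 3 of clone 8.

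The genes with the widest spread within clone 8 showed this split. CCL2, a chemokine that attracts monocytes, read 8.36 and 8.49 on clone 8 replicates 1 and 2 but 12.17 on replicate 3, and 11.86, 11.82 and 11.74 in mock. On clone 7 it read 12.03 on replicate 1 and 8.32 on replicate 3. Clone 8 therefore overlapped mock with all arrays (log2 difference -2.13 ± 1.01 SE, limma adjusted p = 0.241), and without replicate 3 CCL2 was 10.4-fold lower. These genes were named for their spread within clone 8, so that their values without an array are a description. TDO2, which degrades tryptophan, went the other way, with 8.71 and 9.30 on clone 8 replicates 1 and 2 and 12.05 on replicate 3, against 8.59 to 8.91 in mock. MAGEB2, a cancer-testis antigen, read 8.49 and 9.13 on replicates 1 and 2 and 6.19 on replicate 3, the last of these within the mock range of 6.08 to 6.28. MGST1, a membrane-bound glutathione transferase, was 4.66-fold lower than mock without replicate 3 and 2.45-fold lower with all arrays (adjusted p = 0.331). None of these 4 genes was called with all arrays.

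**Figure D1:**
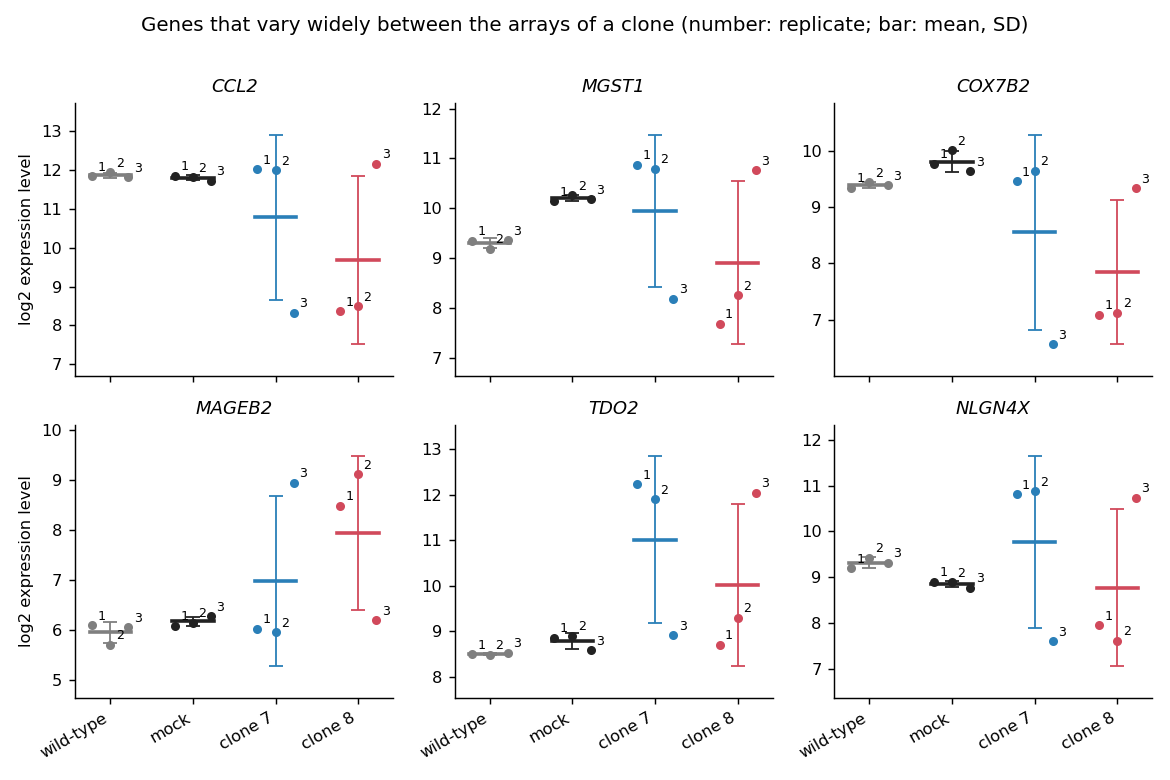
Log2 expression level (vertical axis) of 6 genes with a wide spread within clone 8, 1 point per array, numbered by replicate, for wild-type, mock, clone 7 and clone 8 (horizontal axis). Replicate 3 of clone 8 sits with replicates 1 and 2 of clone 7 and the reverse, as for CCL2, with 12.17 on clone 8 replicate 3 and 8.32 on clone 7 replicate 3.

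hHSS1 itself was raised on every clone 8 array. The EMC10 probe set, which reads the transcripts of the plasmid and of the cell's own gene together, gave 12.13, 12.18 and 11.75 in clone 8 and 9.20, 9.33 and 9.51 in mock. The groups did not overlap, and the fold change was 6.36 (log2 2.67 ± 0.20 SE, limma adjusted p = 3.79e-05). It was 6.13-fold without replicate 1 and 6.99-fold without replicate 3. Mock was the lowest group, at a log2 difference of -1.40 from wild-type cells (adjusted p = 0.00285), so that clone 8 exceeded wild-type by 2.40-fold (adjusted p = 0.00295). Among the 10 measured subunits of the complex EMC10 was the 1 that rose and none fell, where 0.304% of all genes rose and 0.456% fell. EMC6, another core subunit, was lower at the adjusted p alone (log2 -0.44 ± 0.11, adjusted p = 0.0417), and that was lost without replicate 1 (adjusted p = 0.14).

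The limits for calling a gene risen or fallen were 1.5-fold and a limma adjusted p under 0.05. In clone 8, 56 genes rose (0.304% of the 18417) and 84 fell (0.456%) against mock. By the adjusted p alone 363 genes were higher (1.97%) and 575 lower (3.12%). That fit pooled the spread over all 4 groups, of which clone 8 varied most. Fitting clone 8 and mock alone gave 72 higher and 77 lower, and the list counts below rest on the pooled spread. The median over all genes was 0.02 on the log2 scale. Without replicate 1, 62 rose (0.337%) and 53 fell (0.288%), with 259 higher (1.41%) and 235 lower (1.28%) by the adjusted p alone. Without replicate 3, 107 rose (0.581%) and 170 fell (0.923%), with 417 higher (2.26%) and 795 lower (4.32%). Of the 56 risen genes 34 kept the call in both of these settings, and of the 84 fallen genes 43 did. Other arrays mattered too: 164 genes fell without clone 8 replicate 2, 34 rose and 54 fell without mock replicate 2, and 33 rose without mock replicate 3.

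**Figure D2:**
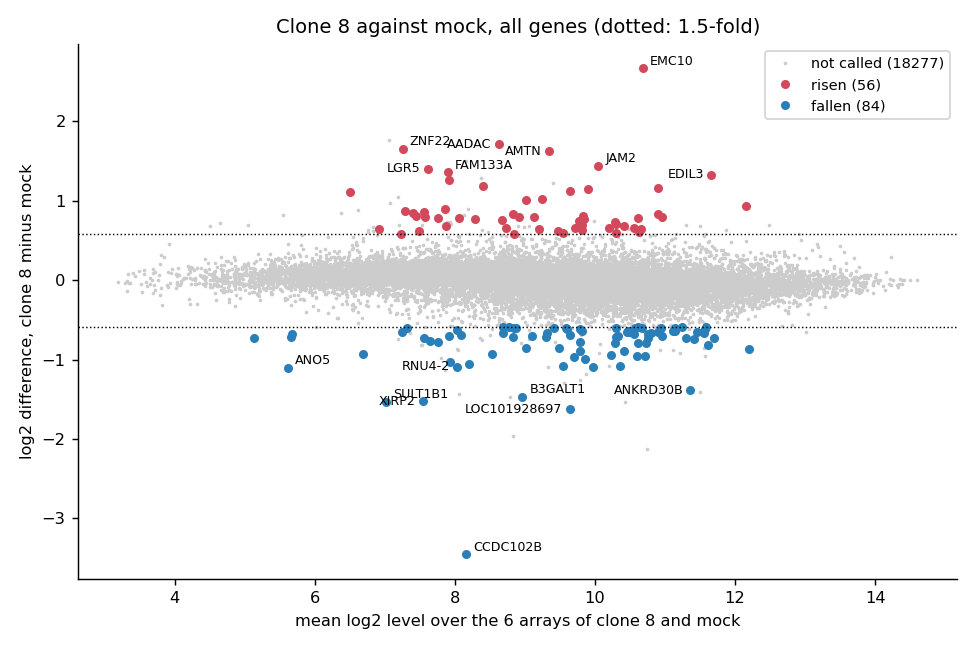
Log2 difference of clone 8 from mock (vertical axis) against the mean log2 level (horizontal axis), 1 point per gene. The 56 risen and 84 fallen genes are coloured, the other genes are grey, and the dotted lines mark a 1.5-fold difference; CCDC102B is the lowest point and EMC10 the highest.

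The rises that held in both settings included several surface and secreted proteins of cell contact. JAM2, a junctional adhesion molecule, read 10.65, 10.70 and 10.93 in clone 8 and 9.36, 9.35 and 9.26 in mock, a 2.71-fold rise with no overlap (log2 1.44 ± 0.08, limma adjusted p = 3.56e-06). CLDN1, a tight junction protein, read 11.46, 11.74 and 11.26 against 10.31, 10.37 and 10.28, a 2.25-fold rise (log2 1.17 ± 0.11, adjusted p = 0.00022). The CLDN1 level of mock was close to that of wild-type (log2 difference 0.05, adjusted p = 0.947), whereas mock JAM2 lay below wild-type by a log2 difference of -0.96 (adjusted p = 5.08e-05), and clone 8 exceeded wild-type JAM2 by 1.40-fold. CDH10, a cadherin, rose 1.86-fold, from 7.37 to 7.43 in mock to 8.00 to 8.62 in clone 8. CD24, a surface sialoglycoprotein, rose 2.27-fold, but its clone 8 arrays spread from 8.32 to 9.54, and near-identical copies of the gene make its value uncertain. Of the 39 measured cell-cell contact genes these 4 rose and none fell, with a list median of 0.12 (0.09 and 0.10 without replicates 1 and 3), where 0.304% of all genes rose and 0.456% fell. By the adjusted p alone 5 of the 39 were higher, against 1.97% of all genes, and none was lower. JAM2, CLDN1, CDH10 and CADM1 were already among the paper's up-regulated A172 genes. The list was made with earlier results of these data known, so that its counts are a description. The gene higher at the adjusted p alone was CADM1, an immunoglobulin-type adhesion molecule (log2 0.49 ± 0.10, adjusted p = 0.0184), which missed the limit without replicate 1 (adjusted p = 0.0685).

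Genes of migration and invasion moved in both directions. EDIL3, a secreted integrin ligand, read 12.16, 12.33 and 12.47 in clone 8 and 10.96, 11.03 and 10.98 in mock, a 2.51-fold rise with no overlap (log2 1.33 ± 0.09, limma adjusted p = 9.8e-06). ROBO1, a guidance receptor for Slit ligands, rose 2.22-fold (log2 1.15 ± 0.19, adjusted p = 0.00603), with 10.56 and 10.84 on replicates 1 and 2 and 10.02 on replicate 3, all above the mock range of 9.29 to 9.34. Against wild-type ROBO1 differed 1.28-fold (adjusted p = 0.232). DOCK1, an activator of Rac, rose 1.58-fold against mock, but clone 8 was at the wild-type level (log2 -0.04, adjusted p = 0.785) and mock lay below it by a log2 difference of -0.70. MMP1 and MMP13, collagenases, rose 1.57-fold and 1.54-fold, and both lost the call without replicate 3 (1.44-fold and 1.47-fold). MMP1 in clone 8 also stayed 1.62-fold below wild-type cells (adjusted p = 0.0141). CTSV, a lysosomal cysteine protease, fell 1.62-fold, and FERMT3, an integrin activator, fell 1.56-fold. In all 5 of 44 measured genes rose and 2 fell, against 0.304% and 0.456% of all genes, and the list median was 0.08. EDIL3, DOCK1, CTSV (there CTSL2) and FERMT3 were already among the paper's changed A172 genes, so that the count is a description. Without replicate 3, 3 rose and 3 fell and the median was 0.02.

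**Figure D3:**
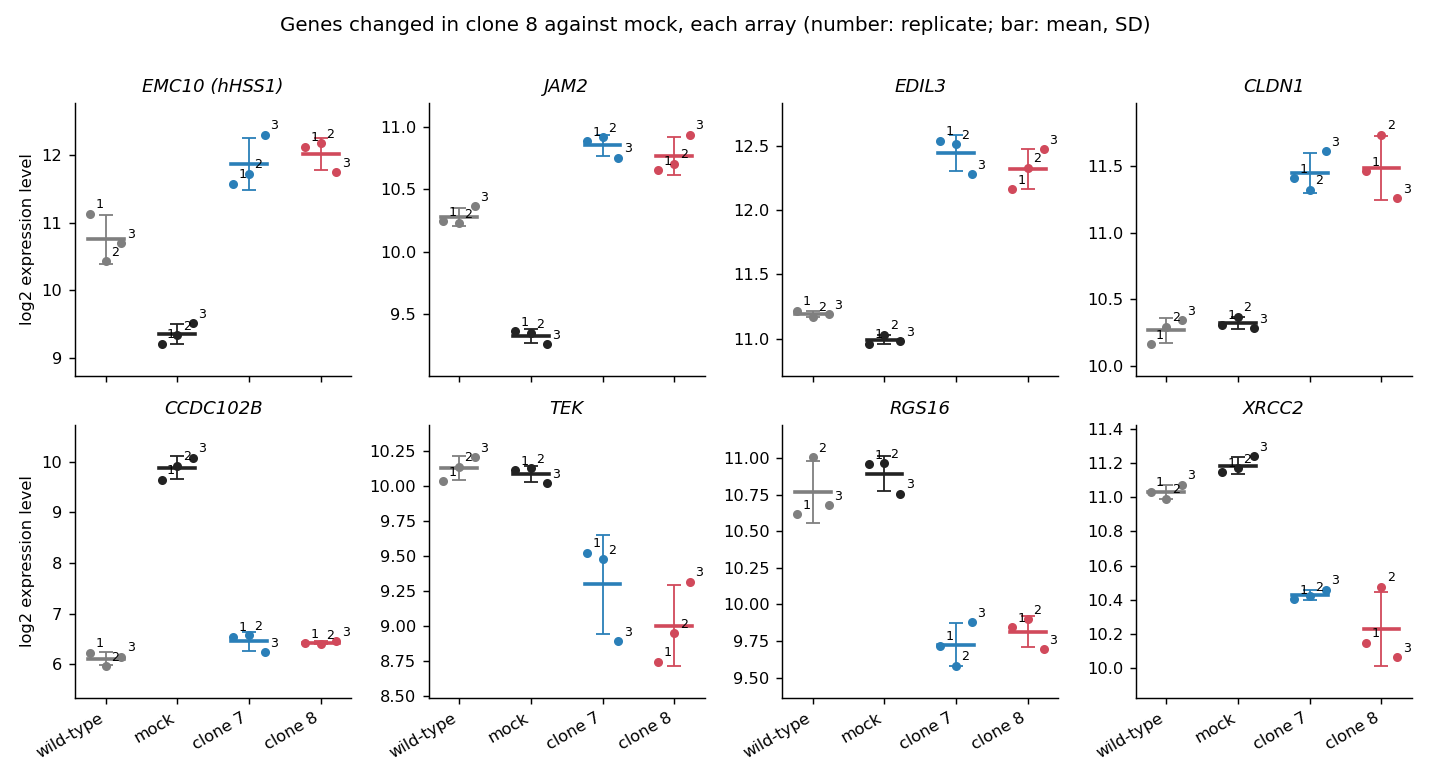
Log2 expression level (vertical axis) of 8 genes in wild-type, mock, clone 7 and clone 8 (horizontal axis). Points are arrays numbered by replicate, and the bar and whiskers give the mean and SD over 3 arrays; for EMC10, JAM2, EDIL3 and CLDN1 each clone 8 array lies above each mock array, and for CCDC102B, TEK, RGS16 and XRCC2 below.

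Other rises kept in both settings were AADAC, an esterase of the ER lumen (3.29-fold, log2 1.72 ± 0.29), and AMTN, a protein of the enamel matrix (3.08-fold, log2 1.62 ± 0.22). AADAC read 9.70, 9.99 and 8.77 in clone 8 against 7.70 to 7.82 in mock and also exceeded wild-type, by 6.29-fold (limma adjusted p = 0.000218). BICC1, an RNA-binding protein, read 9.33, 9.63 and 9.59 against 8.41 to 8.60, a 2.01-fold rise, and was 2.61-fold above wild-type. ZNF22, a zinc finger protein, rose 3.16-fold against mock, with 8.14, 8.49 and 7.61 in clone 8 and 6.76, 6.47 and 6.05 in mock. The mock values of ZNF22 lay below the lower quartile of every array, which makes the size of this rise uncertain, and against wild-type clone 8 differed 1.20-fold (adjusted p = 0.481). FAM133A read 8.39 to 8.70 in clone 8 and 7.15 to 7.28 in mock, a 2.57-fold rise, and differed from wild-type by 1.14-fold (adjusted p = 0.196). Both ZNF22 and FAM133A were below wild-type in mock, by log2 differences of -1.40 and -1.17. The remaining large rises kept in both settings were SYTL5, a synaptotagmin-like Rab effector (1.81-fold), TAF4B, a subunit of the general transcription factor TFIID (1.83-fold), and C2orf15 (2.16-fold). TAF4B and C2orf15 were below the lowest lower quartile of the arrays (7.00) in mock.

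The deepest fall was that of CCDC102B, a coiled-coil protein of the centrosome linker. It read 6.42, 6.40 and 6.46 in clone 8 and 9.64, 9.92 and 10.08 in mock, 11-fold lower with no overlap (log2 -3.45 ± 0.12, limma adjusted p = 1.83e-08). Wild-type cells read 6.23, 5.96 and 6.15, so that mock stood above wild-type by a log2 difference of 3.77 (adjusted p = 6.47e-09), while clone 8 and wild-type differed by 0.31 (adjusted p = 0.113). SULT1B1, a sulfotransferase, had the same order, with 6.28, 6.44 and 6.02 in clone 8, 7.62 to 7.90 in mock and 5.93 to 6.30 in wild-type, and fell 2.89-fold. ANO5, a protein of the anoctamin family, fell 2.15-fold and was also near wild-type in clone 8 (log2 -0.12, adjusted p = 0.252). ANKRD30B fell 2.62-fold, with the proviso that related copies share its probes. Levels of CCDC102B and SULT1B1 in clone 8, and of ANO5 in clone 8 and mock, were below the lower quartile, where fold changes are uncertain.

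Falls against both controls were seen for XIRP2, an actin-binding protein of striated muscle (2.87-fold below mock and 2.14-fold below wild-type), and for B3GALT1, a galactosyltransferase (2.77-fold and 3.57-fold). XIRP2 read 6.76, 6.81 and 6.79 in clone 8, below the lower quartile, and 8.28 to 8.34 in mock. The paper reports that its PCR and array results for XIRP2 differed in both hHSS1 clones. The fall of XIRP2 given here therefore rests on the array values alone. MNS1, a ciliary and flagellar filament protein, was 1.95-fold below mock and 1.97-fold below wild-type. TNFSF10, the death receptor ligand TRAIL, fell 2.04-fold against mock (log2 -1.03 ± 0.18, limma adjusted p = 0.00986) and differed from wild-type by 1.12-fold (adjusted p = 0.571). LOC101928697 fell 3.08-fold. PKD1L1-AS1 fell 1.99-fold against mock but was 2.36-fold above wild-type (adjusted p = 6.91e-05). As an antisense gene it may share signal with the gene on the other strand.

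G protein signalling held 6 falls among 30 measured genes and no rise, where 0.456% of all genes fell and 0.304% rose. As with every list here, its members were chosen with earlier results of these data known, so that the count is a description. RGS16, CHRM3, BDKRB1, PLCXD3 and GPSM2 were already among the paper's down-regulated A172 genes. RGS16, which speeds GTP hydrolysis by G proteins, read 9.84, 9.90 and 9.69 in clone 8 and 10.96, 10.96 and 10.76 in mock, a 2.12-fold fall with no overlap (log2 -1.08 ± 0.11, limma adjusted p = 0.000347), and lay 1.94-fold below wild-type. CHRM3, a muscarinic acetylcholine receptor, read 7.68, 7.28 and 8.06 against 8.72 to 8.76, a 2.09-fold fall. BDKRB1, the kinin B1 receptor, fell 1.75-fold against mock and differed from wild-type by 1.09-fold (adjusted p = 0.424). PLCXD3, a phospholipase-like protein, fell 1.91-fold. GPSM2, which links G proteins to the mitotic spindle, fell 1.57-fold and GNG11, a gamma subunit, 1.52-fold. GPSM2 lost the call without replicate 3 and GNG11 without replicate 1. The list median was -0.11.

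Of 28 measured genes that promote vessel growth, TEK fell and none rose, where 0.456% of all genes fell and 0.304% rose. NRP1 fell as well without replicate 3 (log2 -1.17), and without replicate 1 TEK was again the only fall. TEK, the angiopoietin receptor TIE2, read 8.75, 8.95 and 9.32 in clone 8 and 10.11, 10.12 and 10.02 in mock, a 2.11-fold fall with no overlap (log2 -1.08 ± 0.16, limma adjusted p = 0.00366). It was 1.93-fold lower without replicate 1, 2.35-fold lower without replicate 3 and 2.17-fold below wild-type. VEGFA, the vascular endothelial growth factor, was lower at the adjusted p alone, by a log2 difference of -0.22 (adjusted p = 0.0443), but not without replicate 1 (adjusted p = 0.114) or replicate 3 (adjusted p = 0.0599). None of 25 genes that restrain vessel growth rose or fell, and 17 of the differences lay above 0, with a median of 0.05. At the adjusted p alone 2 were higher, where 1.97% of all genes were, and none was lower. They were THBS2 (0.42), an anti-angiogenic thrombospondin, and COL18A1 (0.24), the precursor of endostatin. Among the members below 0, TIMP3 and SEMA3A had log2 differences of -0.41 each, and THBS1 of -0.04. COL18A1 missed that limit without replicate 1 and without replicate 3. COL4A1, of the same list, rose past both limits without replicate 3 (log2 0.71), where 3 of the 25 were higher and 2 lower at the adjusted p alone. Of 36 genes of ERK output and feedback, the MAP kinase phosphatase DUSP10 rose 1.51-fold and the ETS factor ETV1 fell 1.62-fold. DUSP10 lost its call without replicate 3 (1.48-fold), where HBEGF rose (log2 0.90) and EPHA4 fell (log2 -0.72).

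Most measured genes of mitosis and the spindle were lower in clone 8 than in mock, 28 of 43 at the adjusted p alone with 1 higher, where 3.12% of all genes were lower. Past both limits 6 fell and none rose. The list median was -0.41 against 0.02 for all genes. In the mixed RNA of a culture, fewer dividing cells and less RNA per dividing cell cannot be told apart. PIMREG, a mitotic regulator, read 10.83, 10.95 and 11.04 in clone 8 and 11.72, 11.68 and 11.61 in mock, a 1.66-fold fall with no overlap (log2 -0.73 ± 0.07, limma adjusted p = 0.000329). KIF4A, a chromosome-binding kinesin, read 10.00, 10.29 and 9.55 against 10.77, 10.58 and 10.63, a 1.64-fold fall. The other falls were SGO2, which protects centromeric cohesion (1.62-fold), SMC2, a condensin subunit (1.56-fold), ERCC6L, a DNA translocase of anaphase bridges (1.54-fold), and KIF15, a spindle kinesin (1.53-fold). MKI67, the proliferation antigen Ki-67, was the gene that was higher at the adjusted p alone, and was named after its value was seen (log2 0.39 ± 0.09, adjusted p = 0.0245). Its mean level was 11.77 in clone 8, 11.38 in mock and 11.98 in wild-type, so that clone 8 lay between the controls.

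The mitosis list depended on the arrays used in its count and not in its sign. Without replicate 1, 3 of the 43 fell, 15 were lower and none, MKI67 included, was higher at the adjusted p alone, with a median of -0.37. Without replicate 3, 4 fell and 23 were lower, with a median of -0.30. By array the list median, relative to the mock mean, was -0.39, -0.21 and -0.59 on clone 8 replicates 1, 2 and 3, so that replicate 2 was nearest mock. On the wild-type arrays it was -0.11, -0.10 and -0.02. Against wild-type cells, with all arrays, 18 of the 43 were lower in clone 8 at the adjusted p alone, with a median of -0.29, where 944 of all 18417 genes were lower. PIMREG and SMC2 kept the call in both settings. SGO2 and ERCC6L lost it without replicate 1, KIF4A without replicate 3, and KIF15 in both, each with a fold change of 1.43 to 1.48.

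Sequences just before the start of these genes are shown because genes of the late cell cycle commonly carry the CHR element (TTTGAA, or TTCAAA on the other strand) and the CCAAT box (CCAAT, or ATTGG) there. The 100 bases before the first listed RefSeq start in GRCh38.p14 were taken for 5 of the 6 fallen mitosis genes: KIF15 at chr3:44761694-44761793 and KIF4A at chrX:70290004-70290103 on the plus strand, ERCC6L at chrX:72239028-72239127 on the minus strand, SMC2 at chr9:104094209-104094308 and SGO2 at chr2:200526042-200526141 on the plus strand. Capitals mark the motifs, and positions are counted back from the start.
KIF15: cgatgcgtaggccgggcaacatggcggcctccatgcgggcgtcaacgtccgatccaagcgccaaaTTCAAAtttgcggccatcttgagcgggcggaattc
KIF4A: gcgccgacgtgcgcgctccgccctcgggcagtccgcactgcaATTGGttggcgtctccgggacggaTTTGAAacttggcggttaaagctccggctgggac
ERCC6L: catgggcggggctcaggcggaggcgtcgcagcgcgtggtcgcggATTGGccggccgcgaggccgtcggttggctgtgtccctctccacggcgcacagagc
SMC2: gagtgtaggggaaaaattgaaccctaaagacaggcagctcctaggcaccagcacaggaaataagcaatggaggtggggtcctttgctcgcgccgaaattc
SGO2: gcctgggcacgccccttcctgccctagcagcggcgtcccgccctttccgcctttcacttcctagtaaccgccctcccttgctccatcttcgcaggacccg
KIF15 held a CHR at -35. KIF4A held a CHR at -34 and a CCAAT box at -58, and ERCC6L a CCAAT box at -56. These letters did not occur in the windows of SMC2 and SGO2. Of the 39 genes of the mitosis list with a promoter entry, 16 held the CHR letters (41%), as did 1267 of all 27305 promoters (4.64%) and none of the 36 DNA replication genes with an entry. The CCAAT letters occurred in 24 of the 39 (61.5%), in 17 of the 36 replication genes (47.2%) and in 5105 of all promoters (18.7%). A match of letters is a description and does not show that a factor binds.

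Of 40 measured DNA replication genes 18 were lower at the adjusted p alone, none was higher and 2 fell, with a median of -0.30, where 3.12% of all genes were lower and 0.456% fell. The falls were MCM10, an initiation factor that read 10.01, 10.37 and 10.00 in clone 8 and 10.77 to 10.80 in mock (1.57-fold), and MCM6, a helicase subunit (1.51-fold). Without replicate 1, MCM10 kept its call and 9 genes were lower, and without replicate 3 both kept it and 11 were lower. Against wild-type cells, with all arrays, 9 of the 40 were lower and the median was -0.20. The wild-type arrays lay below the mock mean, with list medians of -0.16, -0.09 and -0.05. Of 21 homologous recombination and Fanconi genes 3 fell (0.456% of all genes) and 7 were lower at the adjusted p alone (3.12% of all genes), with a median of -0.28. Without replicate 1, 1 fell and 4 were lower, and without replicate 3, 1 fell and 6 were lower. XRCC2, a DNA repair protein, read 10.15, 10.48 and 10.06 in clone 8 and 11.15, 11.17 and 11.24 in mock, a 1.94-fold fall with no overlap (log2 -0.95 ± 0.09, limma adjusted p = 0.000218), and was 1.74-fold below wild-type. FANCB, of the Fanconi core complex, and EXO1, an exonuclease, each fell 1.52-fold, and both lost the call without replicate 1 and without replicate 3. Of 25 genes of the G1 checkpoint none rose or fell.

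**Figure D4:**
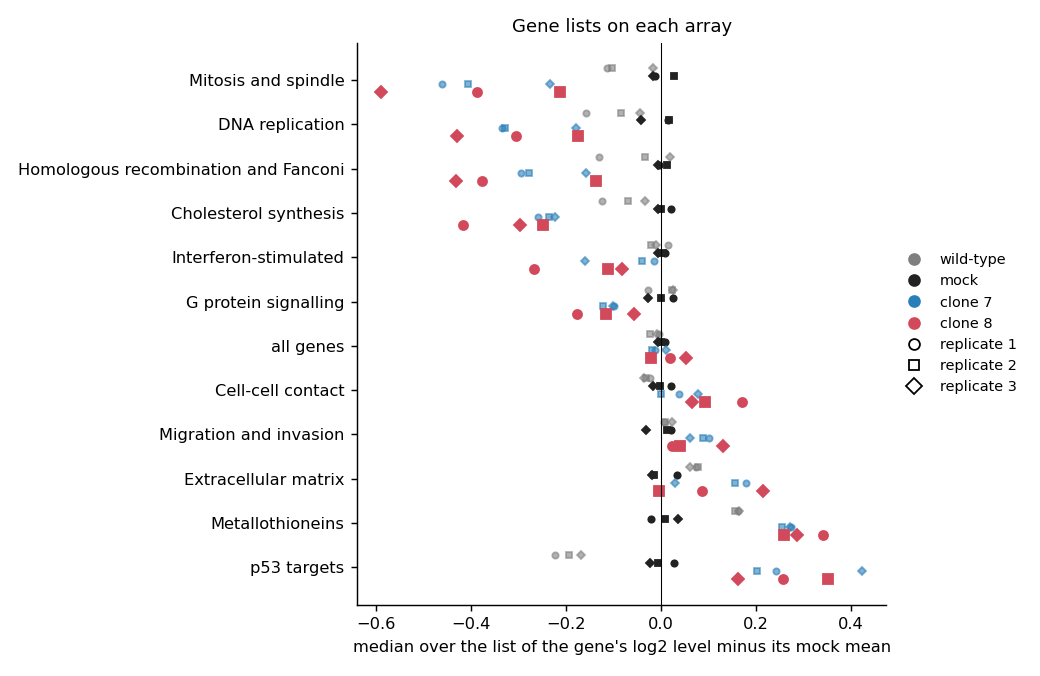
Median log2 difference of the genes of 12 lists from their mock mean (horizontal axis), 1 point per array, with the lists on the vertical axis and the groups in colours. The mitosis list lies at -0.39, -0.21 and -0.59 on the clone 8 arrays, and the p53 targets at 0.26, 0.35 and 0.16.

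Of 25 measured targets of p53, the damage-responsive tumour suppressor, 10 were higher and none lower at the adjusted p alone, where 1.97% of all genes were higher. Past both limits 2 rose and none fell. Without replicate 1, 6 were higher, and without replicate 3, 11. The median was 0.25 (0.23 and 0.30 without replicates 1 and 3). FAS, the death receptor, read 10.68, 10.95 and 10.31 in clone 8 and 9.96, 9.97 and 9.88 in mock, a 1.63-fold rise with no overlap (log2 0.71 ± 0.16, limma adjusted p = 0.0315), and without replicate 1 the call was lost (adjusted p = 0.0911). TP53INP1, a stress-induced cofactor of p53, rose 1.53-fold and kept its call in both settings. Relative to wild-type cells the list median of clone 8 was 0.43, with 16 of the 25 genes higher at the adjusted p alone, where 679 of all 18417 genes were. The wild-type arrays lay below the mock mean, with list medians of -0.22, -0.19 and -0.17.

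Of 19 measured cholesterol synthesis genes 9 were lower at the adjusted p alone, none was higher and 1 fell, against 3.12% lower and 0.456% fallen of all genes, and the median was -0.35 (-0.30 and -0.31 without replicates 1 and 3). The fall was that of ACAT2, a cytosolic thiolase, which read 9.16, 9.43 and 9.58 in clone 8 and 10.20, 10.20 and 10.12 in mock (1.72-fold). Of 21 fatty acid synthesis genes ELOVL6 and ELOVL2, both elongases, fell. ELOVL6 read 9.80, 10.37 and 10.21 against 11.05, 11.14 and 11.05, a 1.93-fold fall with no overlap (log2 -0.95 ± 0.11, limma adjusted p = 0.00102), and was 2.09-fold below wild-type. ELOVL2 fell 1.60-fold and lost the call without replicate 3 (1.47-fold). Another list held 40 measured genes put under the metabolism of branched-chain amino acids, propanoate or butanoate. In it AADAC, the esterase named above, and ECHS1, the mitochondrial enoyl-CoA hydratase (1.58-fold), rose and ACAT2 fell. The list median was -0.08. It was -0.03 without replicate 1 and -0.20 without replicate 3, where 3 genes fell. The paper had already named AADAC, ECHS1 and ACAT2 in its butanoate pathway for A172 cells, so that the count is a description. ECHS1 differed from wild-type by 1.12-fold (adjusted p = 0.151).

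Matrix, contractile and inflammatory genes moved in both directions. Over all genes 0.304% rose and 0.456% fell. Of 41 matrix genes VCAN, a large proteoglycan (1.66-fold), and LTBP2, a microfibril protein (1.51-fold), rose, and LRRC15, a membrane protein of the tumour stroma, fell 1.83-fold from 12.61 to 12.68 in mock to 11.60 to 12.04 in clone 8. VCAN lost its call without replicate 1 and LTBP2 without replicate 3. By the limma adjusted p alone 6 of the 41 were higher and 2 lower, where 1.97% and 3.12% of all genes were. COL6A1 (log2 0.45, adjusted p = 0.00102) and COL6A2 (log2 0.35, adjusted p = 0.00831) were among the higher. NID1 (log2 -0.33, adjusted p = 0.00447) was among the lower. Further calls appeared without replicate 3: COL4A1 (log2 0.71) and LTBP1 (0.84) rose, and COL3A1 (-1.27) and LAMA4 (-1.14) fell. Of 24 contractile genes ACTA2, smooth muscle actin (1.79-fold), and TAGLN, an actin cross-linker (1.68-fold), rose, and XIRP2 and TMOD1, which caps actin filaments (1.73-fold), fell. ACTA2 read 11.52, 11.49 and 10.96 against 10.43 to 10.54, and TAGLN 9.91, 9.94 and 10.57 against 9.32 to 9.44, so that replicate 3 was the lowest array for the former and the highest for the latter. TAGLN lost its call without replicate 3 (1.44-fold), and its mean level was 10.14 in clone 8, 10.14 in wild-type and 9.39 in mock. Among 39 inflammatory and complement genes IL2RG, the common gamma chain of interleukin receptors (1.73-fold), and IL18 (1.71-fold) rose, and CFI, a complement protease, fell 1.71-fold. Without replicate 3, 3 of the 39 rose and 2 fell, where 0.581% of all genes rose and 0.923% fell.

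Of the 14 astroglial and glioma markers, nestin (NES), an intermediate filament of neural progenitors, fell 1.59-fold, from 9.60 to 9.69 in mock to 8.90 to 9.03 in clone 8 (limma adjusted p = 0.000504), and was 2.15-fold below wild-type. None of the 14 rose, where over all genes 0.304% rose and 0.456% fell. Of 10 measured epithelial markers 2 fell and none rose, with a list median of -0.06. KRT15, a basal keratin, fell 1.58-fold with a narrow spread (8.31 to 8.45 against 8.94 to 9.10). ELF3, an epithelial ETS factor, fell 1.86-fold and lost the call without replicate 1. Of 10 fibroblast markers ACTA2 rose and none fell. None of 9 endothelial and 8 leukocyte markers was called in either direction.

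Chromosome 10 held 17 of the 56 risen genes. It carries 679 of the measured genes, of which 2.5% rose and 3 genes fell, against 0.304% risen over all genes. The count was 18 without replicate 1 and 21 without replicate 3. Its largest rises were ZNF22, ADAM12, BICC1, ACTA2 and PLEKHA1. ADAM12, a membrane metalloprotease, rose 2.04-fold with all arrays and lost the call without replicate 1 (limma adjusted p = 0.0684). PLEKHA1, a phosphoinositide-binding protein, read 9.09, 9.52 and 9.32 in clone 8 and 8.44 to 8.61 in mock (1.74-fold). When the genes were taken in 12 runs of 56 or 57 along the chromosome, the first 3 runs, TUBB8 to TMEM72, had medians of -0.10, -0.12 and -0.12. The 9 later runs were all positive, up to 0.19 in the last, NKX1-2 to SPRNP1, which held 7 rises. In that last run the median of mock minus wild-type was -0.09 and that of clone 8 minus wild-type 0.08.

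Many calls were lost when 1 array was left out, whether of clone 8 or of mock. Of the 140 called genes 92, 117 and 114 kept the call without clone 8 replicates 1, 2 and 3. Without mock replicates 1, 2 and 3, 90, 80 and 88 did. Of the risen genes 12 lost the call only without clone 8 replicate 1, 8 only without clone 8 replicate 3, and 2 in both settings. Of the fallen genes 25, 7 and 9 did. LGR5, a receptor for R-spondins, rose 2.64-fold with 8.33, 8.95 and 7.68 in clone 8 against 6.81 to 7.00 in mock, and its limma adjusted p went from 0.0173 to 0.0544 without replicate 1. NEO1, a netrin receptor, rose 2.17-fold and PCDH10, a protocadherin, 1.91-fold, and both lost the call in the same way, though no clone 8 array overlapped mock. In NEO1 and PCDH10 replicate 3 was the clone 8 array nearest mock. In the other direction 20 rises and 3 falls that were not called with all arrays were called without replicate 1, and 61 rises and 102 falls without replicate 3. The latter included NELL2, a secreted neural protein (4.44-fold higher), RASGRP1, an activator of Ras (3.98-fold higher), and COX7B2, a cytochrome oxidase subunit (6.51-fold lower).

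**Figure D5:**
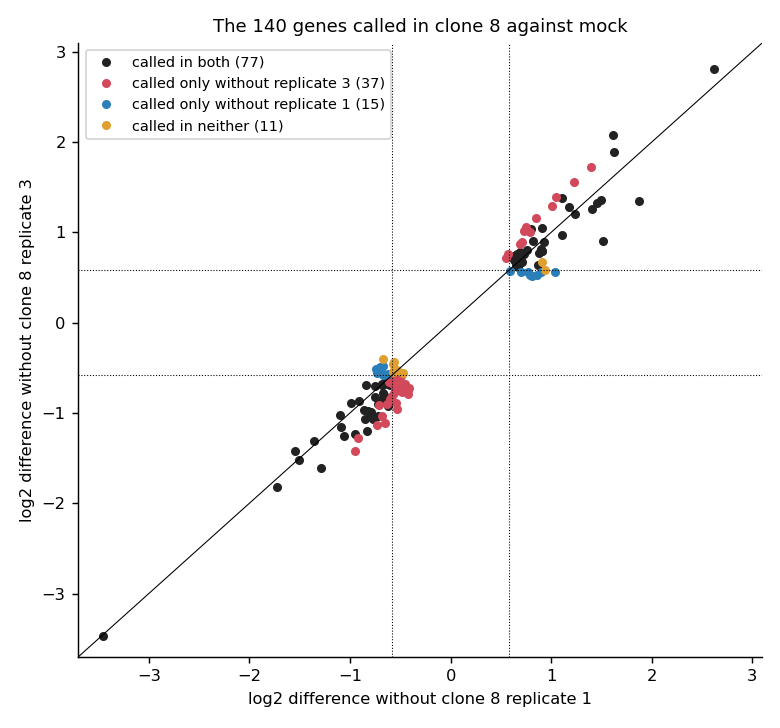
Log2 difference of clone 8 from mock for the 140 called genes, without replicate 1 of clone 8 (horizontal axis) against without replicate 3 (vertical axis). Colours show in which of the settings a gene kept its call, which 34 of the 56 risen and 43 of the 84 fallen genes did in both.

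Against wild-type cells 141 genes were higher in clone 8 (0.766%) and 165 lower (0.896%) past both limits. EDIL3, CLDN1, BICC1, CDH10 and AADAC were higher than in wild-type as well as in mock, and RGS16, TEK, XRCC2, ELOVL6, LRRC15 and NES were lower than in both. The clone 8 arrays enter both comparisons. Against clone 7 as labelled, limma called 0 genes higher (0%) and 0 lower (0%), although 1328 genes had an unadjusted p under 0.05. With both arrays labelled replicate 3 left out, 173 genes were higher (0.939%) and 444 lower (2.41%) in clone 8 than in clone 7. These arrays were left out because of their values, which widens the difference by construction, so that these counts are a description.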

How the data were processed

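RNA from A172 cultures was hybridised to Human Gene 1.0 ST arrays (Affymetrix). The log2 values deposited by the authors, 1 per probe set and array, were already summarized and normalized. The submitters' processing notes name Partek without a version. How values were normalized was not given in the sources used here. There were 33297 probe sets, 0 missing values and no detection calls. Groups came from the sample titles, which write A172 where another label field spells the line differently. Of the probe sets, 19460 had a single symbol in the platform annotation, and the one with the highest mean over 12 arrays was kept per gene (18417 genes). Chromosomes and promoters are from RefSeq (GRCh38.p14).

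A model of 4 group means was fitted to all 12 arrays with limma 3.58.1 (functions lmFit and eBayes; R 4.3.3), with Benjamini-Hochberg adjustment over all genes. The same fit was also run on simulated arrays with known differences. These had 1 spread per gene for all groups, unlike the data, where clone 8 varied most. That run therefore cannot show whether the pooled spread suits clone 8. A gene was called at an adjusted p under 0.05 and 1.5-fold. ± gives the SE of a log2 difference. Lists were described by counts and medians, without a test. The genes, lists and comparison were chosen with earlier results of these data known. Genes were named if they were EMC10, among the 15 largest rises or falls kept without replicate 1 and without replicate 3 of clone 8, among the largest that lost or gained the call in those settings, among the 10 with the largest SD in clone 8, among the leading members of a list, or among the 5 largest changes on chromosome 10. No gene was called against both mock and clone 7 with the arrays as labelled. Alternatives were leaving out arrays, fitting only the groups compared, array weights, a replicate block, quantile normalization, median centring, a filter on dim genes, the mean over probe sets, a trended and robust eBayes, and other limits.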

Additional observations from a re-analysis of the deposited data

Results flagged for a closer look

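Among the 13837 probe sets without a single gene symbol, which the comparison did not use, 7 rose and 8 fell in clone 8 against mock at the same limits.

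The difference between the clones, tested as clone 8 minus clone 7, held 0 genes past the limits with the arrays as labelled (1328 had an unadjusted p under 0.05). It held 173 genes higher and 444 lower in clone 8 once clone 7 replicate 3 and clone 8 replicate 3 were left out, a choice made after the array values were seen. NELL2 was then higher in clone 8 by a log2 difference of 2.34, and CCL2 and POSTN, a matrix protein, had differences of -3.60 and -3.44. Since the arrays were left out for their values, these are descriptions with no test. The cause was not tested. Groups of 3 arrays are too small for a test of single outlying values.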

How the results depend on the processing

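Fitting only clone 8 and mock gave 35 risen and 54 fallen genes, and limits of an unadjusted p under 0.001 and 1.3-fold gave 146 and 230. Leaving out arrays gave between 33 and 144 risen genes and between 53 and 235 fallen genes. The same settings gave 0 to 173 genes higher and 0 to 444 lower than in clone 7, and 111 to 238 higher and 94 to 316 lower than in wild-type. The setting without clone 7 replicate 3 and clone 8 replicate 3 was added after seeing the data. Without clone 8 replicate 2 there were 43 risen and 164 fallen genes, without mock replicate 2 there were 34 and 54, and without mock replicate 3 there were 33 and 63. Against wild-type, 216 genes were higher and 273 lower without clone 8 replicate 3, 94 were lower without clone 8 replicate 1, and 105 and 106 without wild-type replicates 2 and 3. Without clone 8 replicates 1 and 3 together there were 103 risen and 58 fallen genes, the lone array being assumed to vary like the other groups. A filter on dim genes left 9606 genes, of which 38 rose and 68 fell. The EMC10 difference stayed between 2.59 and 2.83 on the log2 scale. Of the 140 called genes 49 kept the call under every alternative, and no called gene reversed. The medians of 19 of 38 lists moved under at least 1 alternative. The cause was not tested.

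With the replicate number as a block, 41 genes rose and 70 fell. Deviations of same-numbered mock and clone 8 arrays correlated at -0.16, 0.07 and -0.08 across genes. Those of wild-type and clone 8 correlated at 0.45, 0.23 and -0.11. Array 3 of clone 8, which went against its label, enters every deviation of that group. These values therefore cannot decide whether the numbers pair the samples.

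An array gives no depth, no detection call came with the values, and genes near the lower quartile have uncertain fold changes.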

Other observations

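Of 9 measured metallothioneins, which bind zinc and copper, 5 were higher in clone 8 than in mock at the limma adjusted p alone, where 1.97% of all genes were, and none passed 1.5-fold. All 9 differences lay above 0, with a median of 0.30 on the log2 scale (0.27 without replicate 1 and 0.27 without replicate 3). The wild-type arrays also lay above the mock mean, by list medians of 0.16, 0.15 and 0.16, and against wild-type the median of clone 8 was 0.16, with 2 of the 9 higher. MT2A read 14.42, 14.34 and 14.37 in clone 8 and 14.14, 14.07 and 14.03 in mock, with no overlap (log2 0.30 ± 0.05, adjusted p = 0.0101). Members of this family are similar in sequence, so that their probe sets may share signal.

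Of 29 genes of the unfolded protein response and ER degradation none rose or fell with all arrays. At the limma adjusted p alone 3 were higher, where 1.97% of all genes were, and 1 was lower, where 3.12% were. ATF3 had the largest difference (log2 0.56 ± 0.13, adjusted p = 0.0259) and rose past both limits without replicate 3 (log2 0.70). HERPUD1, an ER degradation factor (log2 0.28 ± 0.05, adjusted p = 0.0119), and CHAC1 (log2 0.25 ± 0.07, adjusted p = 0.0491) were the other higher genes. PDIA4, a disulfide isomerase, was the lower gene (log2 -0.28 ± 0.06, adjusted p = 0.0272). Without replicate 1, 1 gene was higher and none lower. Of 30 interferon-stimulated genes none was called with all arrays, 4 were lower at the adjusted p alone, and the median was -0.15. Without replicate 3, 2 of them fell and 8 were lower, and without replicate 1 the median was -0.05. No gene of oxidative phosphorylation (27 measured), glycolysis and the hypoxia response (30) or the ribosomal proteins (20) passed both limits.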
